A study of Homo sapiens with 6 samples.

Results

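*PGC* and 8 other genes of the stomach, intestine and pancreas were followed across 6 RNA-seq libraries of HepG2, a human liver cancer cell line. The 9 genes were selected on measured values of these same libraries. *PGC* had stood out in miR-27a KO against Scr cells, and the other 8 were gathered around it as gastrointestinal genes with earlier results known. Their values in all 3 comparisons are therefore given as a description, without a test. Of the 9 genes, 8 had a row among the 20026 genes of the deposited table, and the expression of *TFF2* was not analysed here.

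The study examined what miR-23a and miR-27a, neighbouring microRNAs made from a shared precursor, do in liver cancer cells, and compared each knockout (KO) with scramble (Scr) cells. Scr cells were HepG2 cells of WT genotype that had received the Cas9 plasmid without a guide. Cells of either knockout, miR-23a KO or miR-27a KO, had received the same plasmid with paired guides against that microRNA and were grown from single sorted cells. Each group had 2 libraries, and total counts per library lay between 14405247 and 16515266. The labels do not say whether the 2 libraries of a group are separate clones or repeat cultures, so the p-values below measure only the spread between these libraries, which may be technical, and an effect of a deletion and a property of a clone cannot be told apart. The microRNA genes themselves were not analysed here, so the deletions were not checked in these libraries. By qPCR, the paper reports that miR-23a KO also lowered a mature strand of miR-27a. In miR-27a KO clones, a strand of miR-23a rose slightly and the other fell. Both knockouts lowered another microRNA of the shared precursor, and a miR-27a KO clone was heterozygous for its deletion. The paper calls knockout less than ideal for separating such microRNAs. Which microRNA a difference below belongs to was not tested.

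The members span several parts of the digestive epithelium. *PGC* encodes pepsinogen C, the inactive form of an acid protease that chief cells release into the stomach, whereas the trefoil peptides TFF1, TFF2 and TFF3 are secreted with mucus. *CDX2* encodes a homeobox transcription factor that specifies the intestine, *VIL1* and *MEP1A* encode an actin bundler and a protease of the intestinal brush border, *CDH17* encodes an intestinal cadherin, and *SPINK1* encodes a trypsin inhibitor best known from pancreatic acinar cells. Liver, stomach, intestine and pancreas all arise from endoderm, and liver cancer lines can carry transcripts of the neighbouring organs.

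The mature strands of both deleted microRNAs are shown because their seeds (bases 2 to 8, in capitals) define the sites that were searched in the members. The sequences are from RefSeq (GRCh38.p14), from the minus strand of chr19:13836595-13836615 and chr19:13836447-13836467.
miR-23a-3p: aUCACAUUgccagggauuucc
miR-27a-3p: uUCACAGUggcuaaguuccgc
The longest 3'-UTRs of *PGC*, *MEP1A*, *TFF1*, *TFF2*, *TFF3*, *VIL1*, *CDX2* and *SPINK1* in GENCODE release 29 held 0 matches to either seed (AATGTGA for miR-23a-3p and ACTGTGA for miR-27a-3p). That of *CDH17* held 1 match for miR-23a-3p and 0 for miR-27a-3p. Over 15841 genes, 19.2% had a miR-23a-3p match and 16.6% a miR-27a-3p match. These shares take no account of length, and the 3'-UTRs of the members ran from 141 bases (*PGC*) to 3959 (*VIL1*). The matches are of letters in a single transcript per gene and say nothing of binding.

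The libraries differed in how closely they repeated. More than 2-fold lay between both libraries of a group for 1.35% of genes in miR-27a KO, 6.67% in Scr and 47.8% in miR-23a KO cells, counting genes that reached 40 counts there. The squared deviations between the libraries of a pair were at the median 1.81, 12.7 and 158 times what sampling noise gives, in the same order. The miR-23a KO libraries thus stood far apart, while the miR-27a KO libraries were close to counting error.

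All 16 hepatocyte markers were present with at least 10 counts in every library, in keeping with the label of a liver line. Their summed level was 36556 and 36455 CPM (counts scaled to library size with TMM) in miR-27a KO cells, 41017 and 48066 in Scr cells and 48743 and 40505 in miR-23a KO cells. *SERPINA1* had the highest mean of them over the 6 libraries. The miR-27a KO libraries lay below the other 4, an order that rested on *ALB* where Scr is concerned. Without *ALB* the sums were 34469 and 34308 CPM in miR-27a KO cells, above 30768 and 33042 in Scr cells. They were 40810 and 25616 CPM in miR-23a KO cells. Without *AFP*, miR-23a KO replicate 2 (33862 CPM) lay below both miR-27a KO libraries (36371 and 36264 CPM). In bulk RNA, fewer cells with a transcript and less of it per cell cannot be told apart, here and in all results below.

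*PGC* (gene 5225, chr6:41736711-41754109, minus strand, GENCODE release 29 on GRCh38) had 7847 and 7530 counts in miR-27a KO cells, 777 and 721 in Scr cells and 111 and 214 in miR-23a KO cells. The miR-27a KO libraries were the highest, the miR-23a KO libraries the lowest, and no group overlapped another. The mean level was 464 ± 15.9 CPM (SD, n = 2) in miR-27a KO cells, 50.8 ± 3.33 in Scr cells and 10.1 ± 2.31 in miR-23a KO cells. The ratio to Scr was 9.14 in miR-27a KO cells, whereas Scr exceeded miR-23a KO cells by a ratio of 5.02. The gaps between groups were wider than the spread within any of them. Per kb of transcript, *PGC* ranked 150 from the top of 17437 genes in miR-27a KO cells, above 99.1% of them, and stood above 87.9% in Scr and above 64.0% in miR-23a KO cells.

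The *PGC* promoter is shown because the other members were gathered around this gene (RefSeq, GRCh38.p14, chr6:41747348-41747647, minus strand, 250 bases before to 50 after the start, motif in capitals).
PGC: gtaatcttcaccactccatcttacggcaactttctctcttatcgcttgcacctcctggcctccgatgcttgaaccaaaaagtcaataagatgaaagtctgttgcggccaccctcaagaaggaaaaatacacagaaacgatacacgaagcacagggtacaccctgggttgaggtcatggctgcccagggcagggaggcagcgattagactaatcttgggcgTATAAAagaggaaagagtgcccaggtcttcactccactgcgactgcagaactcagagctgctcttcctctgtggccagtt
Both strands were searched for a TATA box (TATAAA), a CDX core, a GATA site and an HNF4 site. The window held the TATA box at -30, with a CDX core (TTTAT) on the other strand inside the same letters at -29. Every TATA box of these letters contains that core, and the window held no CDX core elsewhere. Of 35116 promoters of this length, 11.5% held the TATA box, 34.9% the CDX core, 10.3% the GATA site and 0.384% the HNF4 site.

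*MEP1A* (gene 4224, chr6:46793390-46839782, plus strand), the meprin alpha protease, had 4 and 3 counts in miR-27a KO cells, 1291 and 2032 in Scr cells and 1863 and 864 in miR-23a KO cells. The miR-27a KO libraries were nearly empty of this transcript, while the Scr and miR-23a KO libraries overlapped. Its mean level was 0.211 ± 0.0437 CPM in miR-27a KO cells, 112 ± 34.1 in Scr cells and 94.9 ± 67.1 in miR-23a KO cells (SD, n = 2). By summed counts, Scr exceeded miR-27a KO cells 533-fold, with a 95% counting interval of 259 to 1327 that covers counting error only, as do the other counting intervals below. Per kb, *MEP1A* stood above 88.1% of genes in Scr and above 20.6% in miR-27a KO cells, a fall from the level of *PGC* in Scr (37.8 against 37.0 CPM per kb) to near the floor.

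*SPINK1* (gene 6690, chr5:147824568-147831786, minus strand), the trypsin inhibitor, had 7 and 1 counts in miR-27a KO cells, 56 and 66 in Scr cells and 120 and 123 in miR-23a KO cells. The miR-23a KO libraries were the highest and the miR-27a KO libraries the lowest, with no overlap. Means were 0.242 ± 0.257 CPM in miR-27a KO cells, 4.13 ± 0.427 in Scr cells and 7.96 ± 1.71 in miR-23a KO cells (SD, n = 2). Scr exceeded miR-27a KO cells 17.1-fold by summed counts (95% counting interval 8.42 to 40.6).

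*CDX2* (gene 1045, chr13:27962137-27971139, minus strand), the intestinal homeobox factor, had 3 and 6 counts in miR-27a KO cells, 78 and 79 in Scr cells and 189 and 135 in miR-23a KO cells. The order of the groups was that of *SPINK1*, again without overlap, although the miR-23a KO libraries differed from each other by more than the lower of them differed from Scr. Means were 0.271 ± 0.127 CPM in miR-27a KO cells, 5.32 ± 0.0197 in Scr cells and 10.9 ± 4.97 in miR-23a KO cells (SD, n = 2). Scr exceeded miR-27a KO cells 19.6-fold by summed counts (95% counting interval 10.1 to 43.6). The centred log2 CPM profiles of *CDX2* and *SPINK1* over the 6 libraries lay 1.62 apart, the smallest distance between any pair of the 5 members that passed the low-count filter, and those of *PGC* and *MEP1A* lay 14.6 apart, the largest.

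The *CDX2* promoter is shown because CDX proteins are known to act on gut genes, *CDX2* included (RefSeq, GRCh38.p14, chr13:27969266-27969565, minus strand, 250 bases before to 50 after the start, motifs in capitals).
CDX2: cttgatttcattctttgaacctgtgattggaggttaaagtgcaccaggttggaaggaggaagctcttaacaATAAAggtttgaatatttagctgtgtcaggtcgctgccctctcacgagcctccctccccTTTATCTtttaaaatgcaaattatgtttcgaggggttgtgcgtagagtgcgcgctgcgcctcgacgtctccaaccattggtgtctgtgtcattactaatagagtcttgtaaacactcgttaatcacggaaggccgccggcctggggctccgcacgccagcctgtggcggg
It held CDX cores at -179 and -120 and a GATA site on the other strand at -119 that overlaps the latter core. The promoter of *SPINK1* over the same window held 0 of the 4 motifs. The shares of all promoters with each motif are those given for *PGC*, and a match is a description of letters only.

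*VIL1* (gene 7429, chr2:218419092-218453295, plus strand), which encodes villin, had 7623 and 7498 counts in miR-27a KO cells, 6111 and 6796 in Scr cells and 4116 and 5511 in miR-23a KO cells. Its mean levels were 456 ± 7.63 CPM in miR-27a KO cells, 437 ± 27.3 in Scr cells and 308 ± 8.54 in miR-23a KO cells (SD, n = 2). The Scr and miR-27a KO libraries overlapped, and the miR-23a KO libraries lay below both, by a fitted log2 fold change against Scr that shrank from -0.47 to -0.07 with GC content and length corrected. The 3' end of *VIL1* overlaps *USP37* on the opposite strand, and their reads cannot be told apart unless strand was used in the counting, which is not stated. Per kb, villin transcripts were the most abundant of the members in Scr (66.9 CPM per kb) and in miR-23a KO cells (47.2), and were exceeded in miR-27a KO cells (69.8) by those of *PGC* (338).

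The trefoil and cadherin members were near or at 0. *TFF1* (gene 7031) had 2 and 0 counts in Scr and 0 in the other 4 libraries. *TFF3* (gene 7033) was counted 5 and 8 times in miR-27a KO cells, 2 and 0 in Scr cells and 10 and 4 in miR-23a KO cells. *CDH17* (gene 1015) had 5 and 0 counts in Scr, 2 and 2 in miR-23a KO, then 2 and 0 in miR-27a KO. Differences of *TFF1*, *TFF3* and *CDH17* between groups are not read at this depth. For *TFF3*, with 2 counts in Scr, the ratio of miR-23a KO to Scr counts was 6.60 with a 95% counting interval of 1.52 to 59.8, and that of miR-27a KO to Scr was 5.79 with an interval of 1.31 to 52.8. The *TFF3* row carried 1 transcript identifier and none of RefSeq, and the *CDH17* row carried 1 predicted RefSeq transcript, so both rows may miss reads of the main transcripts.

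**Figure D1:**
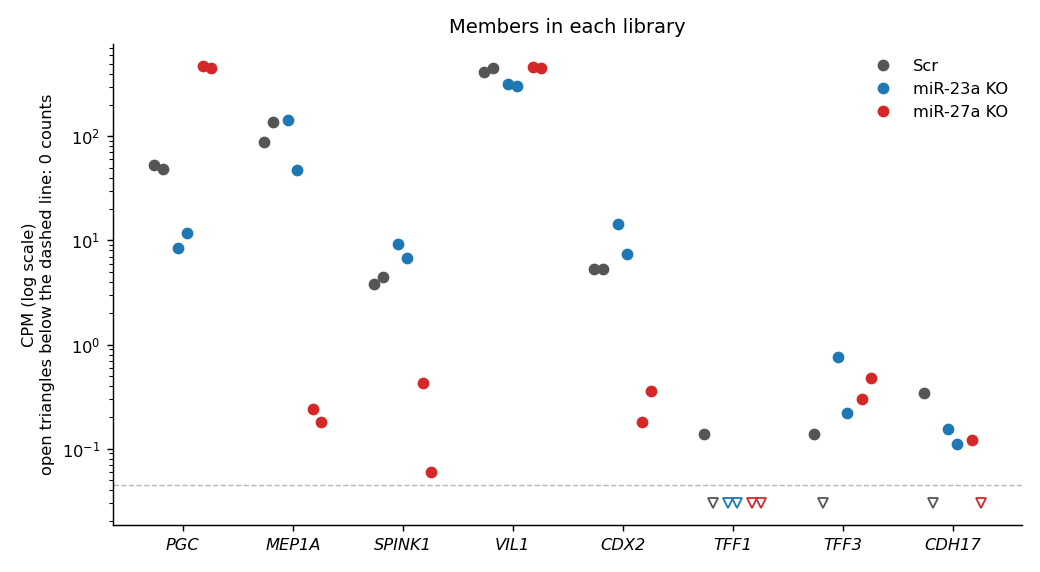
Level of the 8 members with a row in each library, in CPM on a log axis; each point is 1 library, 2 per group, and open triangles below the dashed line are libraries with 0 counts. *PGC* is highest in both miR-27a KO libraries (475 and 453 CPM), where *MEP1A*, *SPINK1* and *CDX2* are all below 0.5 CPM.

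Of the 8 members with a row, 5 passed the low-count filter in each comparison (*PGC*, *MEP1A*, *SPINK1*, *CDX2* and *VIL1*), and 3 did not (*TFF1*, *TFF3* and *CDH17*). Both miR-27a KO libraries exceeded both of Scr for 1 of the 5 (*PGC*) and were lower for 3, where 33.4% and 31.0% of 13821 genes did so. In miR-23a KO against Scr cells, 2 lay above (*SPINK1* and *CDX2*) and 2 below (*PGC* and *VIL1*), where 9.91% and 13.7% of 13787 genes did so. In miR-23a KO against miR-27a KO cells, 3 lay above and 2 below, where 19.7% and 19.9% of 13841 genes did so. Since the members were selected on these values, nothing is read from these counts. The comparisons with Scr share the Scr libraries.

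Fitted log2 fold changes of miR-27a KO against Scr cells were 3.17 (standard error 0.10) for *PGC*, -9.02 (0.39) for *MEP1A*, -4.07 (0.68) for *SPINK1*, -4.27 (0.44) for *CDX2* and 0.04 (0.08) for *VIL1*. Against Scr, miR-23a KO cells had -2.28 (0.50), -0.24 (0.57), 0.97 (0.60), 1.05 (0.60) and -0.47 (0.44) for the same genes. For *PGC*, *SPINK1* and *CDX2* the knockouts lay on opposite sides of Scr. When each library was left out in turn, *PGC* ranged from 3.10 to 3.26 in miR-27a KO and from -2.60 to -2.11 in miR-23a KO cells, and *MEP1A* ranged from -9.29 to -8.68 and from -1.25 to 0.32. The value of *MEP1A* in miR-23a KO cells changed sign without Scr replicate 2 (0.11) and without miR-23a KO replicate 2 (0.32). *SPINK1* in miR-27a KO cells ranged from -5.93 to -3.27.

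**Figure D2:**
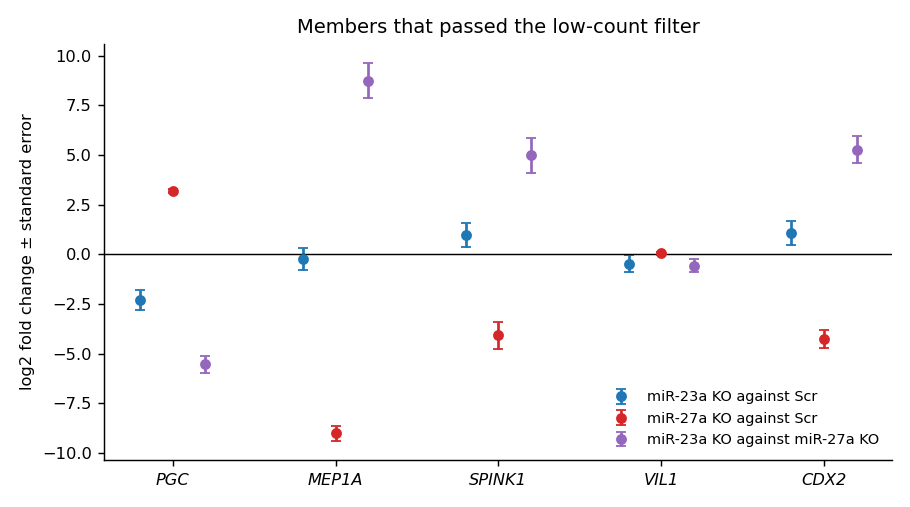
Log2 fold change of the 5 members that passed the low-count filter in each comparison, from edgeR, with bars of 1 standard error and 2 libraries per group. *PGC* (3.17 and -2.28), *SPINK1* (-4.07 and 0.97) and *CDX2* (-4.27 and 1.05) have opposite signs in miR-27a KO and miR-23a KO cells against Scr. *VIL1* is at 0.04 (standard error 0.08) in miR-27a KO and -0.47 (0.44) in miR-23a KO cells against Scr.

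The genes with the profile most like each member over the 6 libraries were found by the distance between centred log2 CPM values among 13411 other genes. Those nearest to *PGC* were *FREM1* (distance 0.53), *SH2D4A* (1.15), *IFNLR1* (1.32), *TUBBP5* (1.36) and *TANC1* (1.37). *FREM1* had 225 and 245 counts in miR-27a KO cells, 20 and 21 in Scr cells and 1 and 6 in miR-23a KO cells. *TUBBP5* is a tubulin pseudogene whose reads may be shared with its parent genes. All 5 were highest in the miR-27a KO and lowest in the miR-23a KO libraries, an order for which a search by the profile of *PGC* selects.

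Nearest to *MEP1A* were *MID1IP1* (0.84) and *DLK1* (0.96), nearest to *CDX2* were *BOC* (0.57) and *SYP* (0.61), nearest to *SPINK1* were *SYNPO* (0.67) and *FAM78A* (0.68), and nearest to *VIL1* were *TMEM230* (0.15) and *CPT2* (0.15). *MID1IP1* had 4 and 3 counts in miR-27a KO cells, 1370 and 1226 in Scr cells and 1266 and 544 in miR-23a KO cells. *BOC* had 12 and 14 counts in miR-27a KO cells, 201 and 200 in Scr cells and 327 and 311 in miR-23a KO cells. None of the nearest genes named here belonged to the gastrointestinal lists.

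**Figure D3:**
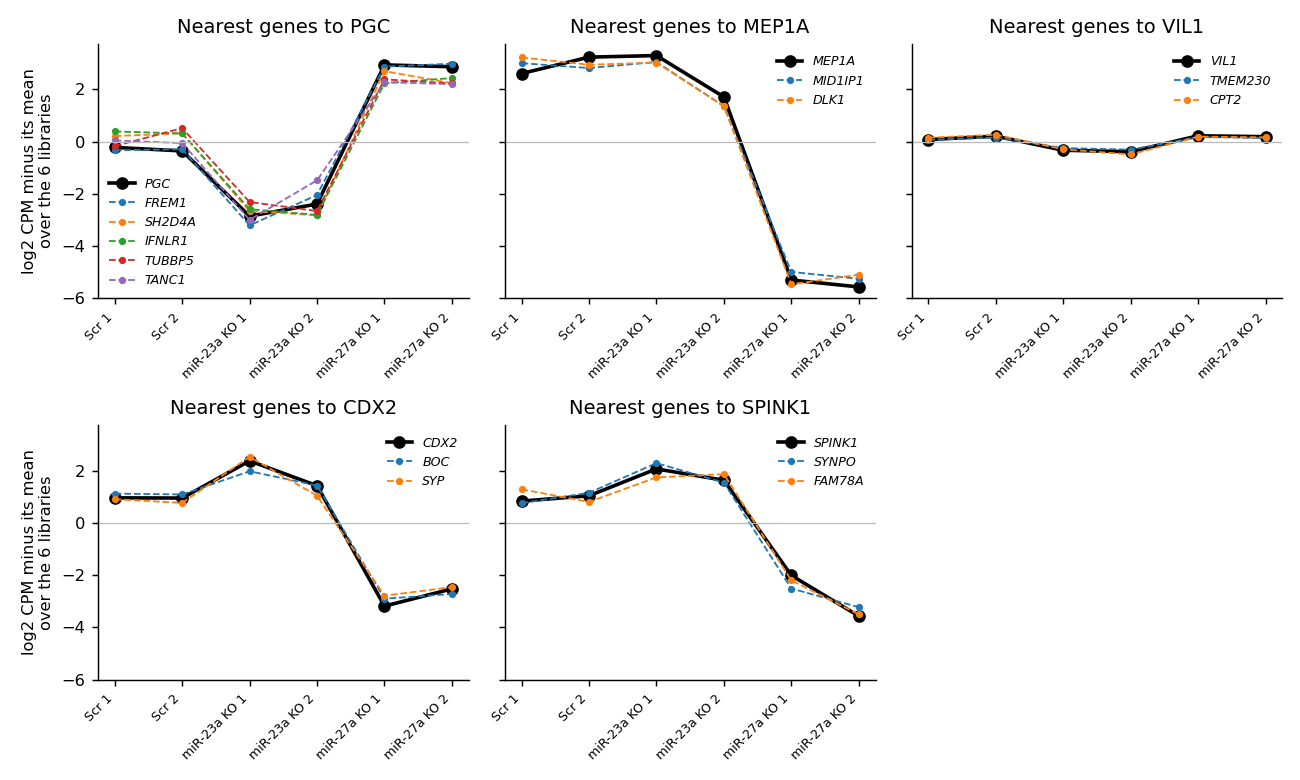
Log2 CPM minus its mean over the 6 libraries for each member (black) and its nearest genes (coloured); points are libraries, and lines only join the points of a gene. *PGC* and its 5 nearest genes, picked for that likeness, are low in miR-23a KO and high in miR-27a KO libraries. *MEP1A*, *CDX2* and *SPINK1* are low in both miR-27a KO libraries.

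The genome around the members was described next, a comparison chosen after values were seen. A gene was counted when any of its length lay within 500 kb of either end of a member, so that starts can lie farther apart. Around *MEP1A* there were 6 other genes, of which 3 were tested in miR-27a KO against Scr cells and 2 were called lower (fold change over 1.5 and adjusted p under 0.05 in edgeR). Over all genes tested in that comparison, 487 (3.52%) were called higher and 931 (6.74%) lower. *CYP39A1*, an oxysterol hydroxylase gene whose start lies 141 kb from that of *MEP1A*, had 0 and 0 counts in miR-27a KO cells, 41 and 52 in Scr cells and 35 and 41 in miR-23a KO cells (adjusted p = 0.0134, edgeR quasi-likelihood test with Benjamini-Hochberg adjustment). Set against a floor of 3 counts over the miR-27a KO group, its level was at least 34.8-fold lower there than in Scr cells. The lower 95% counting limit, which also allows for counting error in Scr, was 27.8-fold. *SLC25A27*, a mitochondrial carrier gene 140 kb away, had 1 and 1 counts in miR-27a KO cells, 28 and 47 in Scr cells and 9 and 81 in miR-23a KO cells, and Scr exceeded miR-27a KO cells 42.1-fold (95% counting interval 11.3 to 354, adjusted p = 0.0131 in edgeR). Both neighbours were therefore low in the same libraries as *MEP1A*. *TNFRSF21*, 517 kb from the *MEP1A* start on the other side, had 2702 and 2717 counts in miR-27a KO cells, 2077 and 1028 in Scr cells and 445 and 1585 in miR-23a KO cells and was not called (adjusted p = 0.260, edgeR). The other 3 genes of the window had at most 2 counts in any library.

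Around *PGC*, 19 other genes had rows and 13 were tested in miR-27a KO against Scr cells. Of these, 2 were called higher and 1 lower. *TFEB* is a lysosomal transcription factor gene 17.9 kb from the outermost *PGC* start in GENCODE (which lies upstream of the RefSeq start of the promoter shown). Its start at 41736259 lies just past the 3' end of *PGC* at 41736711, on the same strand. *TFEB* had 866 and 916 counts in miR-27a KO cells, 431 and 459 in Scr cells and 390 and 71 in miR-23a KO cells. It rose by 0.82 on the log2 scale in miR-27a KO cells (adjusted p = 0.0134, edgeR, SE 0.10). *C6orf132* also rose (log2 fold change 0.72, standard error 0.11, adjusted p = 0.0192, edgeR), and *CCND3*, the cyclin D3 gene, fell (-0.81, standard error 0.12, adjusted p = 0.0181, edgeR). The median log2 fold change of the 13 genes was 0.07, beside 0.01 over all genes tested. Around *VIL1* and *CDX2*, 16 and 4 genes were tested in that comparison and edgeR and DESeq2 each called 0, while 3 genes near *VIL1* were lower at an unadjusted p below 0.05 and 0 near *CDX2*, and none of the 3 genes with rows around *SPINK1* passed the filter. The 3 *PGC* neighbours and *SLC25A27* lost their calls when all 6 libraries were fitted together and without miR-27a KO replicate 2, as did the *PGC* neighbours without replicate 1, whereas *CYP39A1* held an adjusted p between 2.12e-05 and 0.0454 over 7 alternatives.

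**Figure D4:**
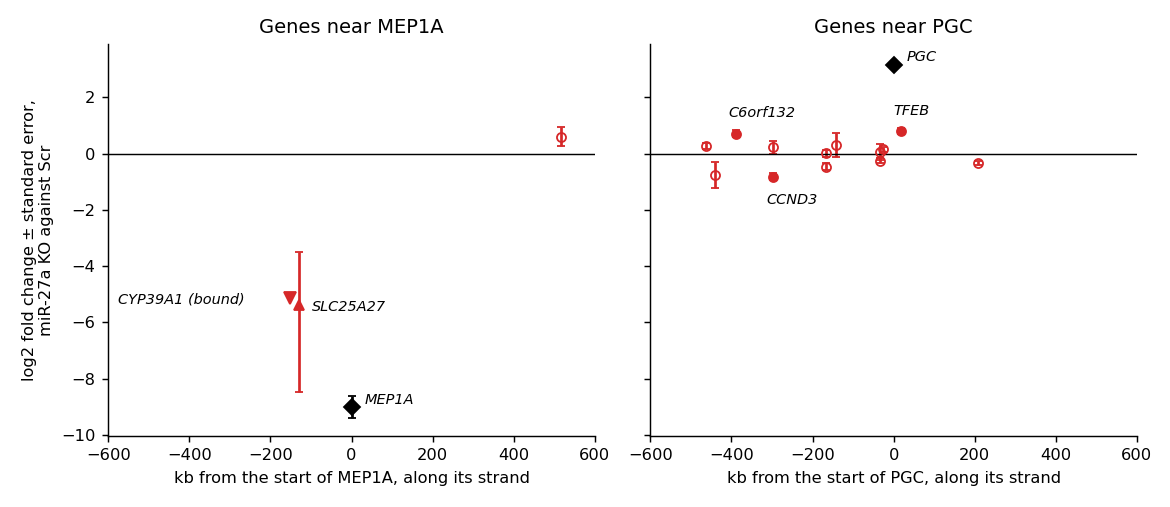
Log2 fold change in miR-27a KO against Scr cells of the tested genes around *MEP1A* and *PGC*, by distance in kb between gene starts; circles show fitted values with bars of 1 standard error, filled where called, diamonds the members. *SLC25A27* is shown as the ratio of counts with its 95% counting interval and *CYP39A1* as the bound from a floor of 3 counts, drawn slightly apart although both lie about 140 kb from the *MEP1A* start. The floor bound of *CYP39A1* (34.8-fold) lies above its lower 95% counting limit (27.8-fold).

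The lists of related genes were described by their counts and medians. Of the gastrointestinal, pancreatic, family and endoderm lists, 66 genes were tested between miR-27a KO and Scr cells, and 8 (12.1%) were called higher and 9 (13.6%) lower, beside 3.52% and 6.74% of all genes. The lists were chosen with earlier results known, so nothing is read from these shares. Both miR-27a KO libraries showed the direction of each call against both Scr libraries, which such a call nearly requires. The fit of all 6 libraries left a call only for *NR5A2* (adjusted p up to 0.0491 over 7 alternatives), and *NKX6-3*, *MUC1* and *ISX* lost theirs in at least 4 of 7 alternatives. With a library left out, 10 of the 17 lost the call, each of them without miR-27a KO replicate 2 (*AGR2*, *ESPN*, *FOXQ1*, *GATA4*, *GATA6*, *ISX*, *LGR5*, *MUC1*, *MYO1A* and *NKX6-3*). Of the stomach list, 12 of 27 genes had a row and 7 were tested, of which edgeR called 0 higher (0 at an unadjusted p below 0.05, 0 by DESeq2) and 3 lower (*NKX6-3*, *MUC1* and *FOXQ1*), with a median log2 fold change of -0.87 beside 0.01 over all genes. *NKX6-3*, a gastric homeobox gene, fell by 1.98 (standard error 0.45, adjusted p = 0.0455, edgeR), *MUC1*, a membrane mucin gene, fell by 1.20 (0.24, adjusted p = 0.0363) and *FOXQ1*, a forkhead gene, fell by 0.64 (0.09, adjusted p = 0.0189), all on the log2 scale. *BHLHA15*, a secretory cell regulator expressed by chief cells, had 493 and 420 counts in miR-27a KO cells, 561 and 639 in Scr cells and 1476 and 570 in miR-23a KO cells. It fell by 0.58 on the log2 scale in miR-27a KO cells (adjusted p = 0.05, edgeR) and was not called.

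Of the brush border list, 19 of 32 genes were tested in miR-27a KO against Scr cells and 3 were called higher and 2 lower, with a median of 0.27. *TREH*, the trehalase gene, was counted 143 and 132 times in miR-27a KO cells, 23 and 21 in Scr cells and 17 and 4 in miR-23a KO cells, and rose by 2.45 on the log2 scale (standard error 0.27, adjusted p = 0.0102, edgeR). *FABP1*, a fatty acid binding protein gene of both enterocytes and hepatocytes, rose by 1.63 (0.12, adjusted p = 0.00521) and *ESPN*, an actin bundler gene, by 0.76 (0.17, adjusted p = 0.0418). *APOA4*, an apolipoprotein gene, fell by 2.20 (0.21, adjusted p = 0.00782) on the log2 scale and *MYO1A*, a brush border myosin gene, had a log2 fold change of -1.505 (0.31, adjusted p = 0.0382). The calls of this list were therefore split in direction. The protease gene *ANPEP* (307 ± 7.05 CPM in miR-27a KO, 341 ± 0.595 in Scr and 271 ± 123 in miR-23a KO cells) and the scaffold gene *SLC9A3R1* (601 ± 13.8, 775 ± 103 and 1071 ± 824 CPM, in that order of groups) had the highest means of the uncalled genes of this list.

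Of the intestinal epithelium list, 12 of 34 genes were tested in miR-27a KO against Scr cells, 4 were called higher and 1 lower, with a median of 0.12. *TSPAN8*, a tetraspanin gene, was counted 329 and 362 times in miR-27a KO cells, 59 and 84 in Scr cells and 13 and 9 in miR-23a KO cells and rose by 2.09 (standard error 0.22, adjusted p = 0.00933, edgeR). *EPCAM*, an epithelial adhesion gene, rose by 1.33 (0.12, adjusted p = 0.00759), *LGR5*, a stem cell receptor gene, by 0.78 (0.11, adjusted p = 0.0166) and *ISX*, an intestinal homeobox gene, by 0.72 (0.16, adjusted p = 0.0441). *AGR2*, a mucous cell chaperone gene, fell by 3.02 on the log2 scale (0.56, adjusted p = 0.0304), with values from -3.53 to -2.22 (the latter without Scr replicate 2) when a library was left out, and was not called without the filter on low counts. *TSPAN8* had the order of *PGC* over the 3 groups, without overlap. *CDX1*, the paralog of *CDX2*, had 1 count in Scr replicate 1 and 0 in the other 5 libraries.

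Of the exocrine pancreas list, 3 of 22 genes were tested in miR-27a KO against Scr cells, and edgeR called 0 higher (0 at an unadjusted p below 0.05, 0 by DESeq2) and 1 lower, with a median of -0.86. That gene, *NR5A2*, encodes a nuclear receptor of pancreas and liver and is also in the list of endoderm factors. It had 0 and 2 counts in miR-27a KO cells, 61 and 118 in Scr cells and 130 and 222 in miR-23a KO cells, and Scr exceeded miR-27a KO cells 101-fold (95% counting interval 27.4 to 836, adjusted p = 0.0141, edgeR). Its fitted log2 fold change was -5.57 without miR-27a KO replicate 1, which had 0 counts, and -9.54 without replicate 2. Its libraries followed the order of *SPINK1* and *CDX2*. The trypsinogen gene *PRSS1*, whose product SPINK1 inhibits, had at most 2 counts in any library.

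Of the member families, 10 of 23 genes were tested in miR-27a KO against Scr cells, and edgeR called 0 higher (2 at an unadjusted p below 0.05, 0 by DESeq2) and 1 lower, with a median of -0.32. *CDH16*, a cadherin gene of the same subfamily as *CDH17*, had 63 and 62 counts in miR-27a KO cells, 461 and 383 in Scr cells and 832 and 552 in miR-23a KO cells and fell by 2.94 (standard error 0.19, adjusted p = 0.00399, edgeR). The pepsin family protease gene *CTSD* (mean 661 CPM in miR-27a KO, 828 in Scr and 780 in miR-23a KO cells) and the villin relative *GSN* (361, 434 and 385 CPM) were not called. *CTSE*, the gastric relative of *PGC*, had at most 6 counts in any library.

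Of the endoderm factors, 18 of 22 were tested in miR-27a KO against Scr cells, 1 was called higher and 2 lower, with a median of -0.105. *GATA6* rose by 1.80 (standard error 0.26, adjusted p = 0.0176, edgeR) while its relative *GATA4* fell by 0.61 (0.10, adjusted p = 0.0221), and *NR5A2* is described above. *HNF4A* (415 ± 6.44, 348 ± 18.1 and 302 ± 104 CPM in miR-27a KO, Scr and miR-23a KO cells) and *CEBPA* (321 ± 2.43, 384 ± 84.9 and 648 ± 606 CPM) were not called.

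**Figure D5:**
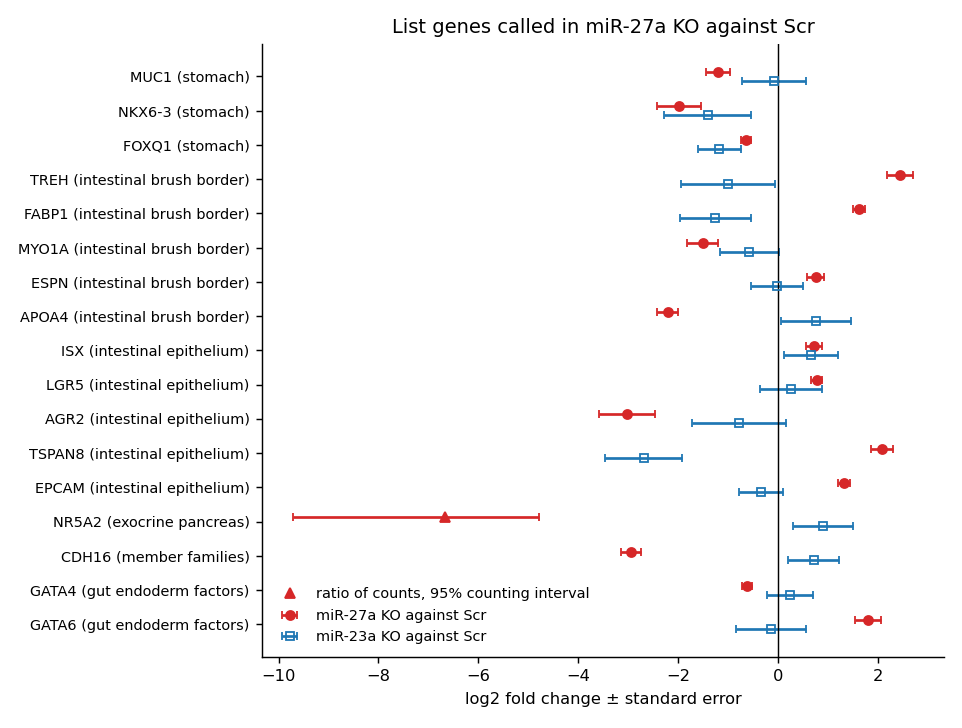
Log2 fold change of the 17 list genes called in miR-27a KO against Scr cells (circles) and of the same genes in miR-23a KO against Scr cells (squares), with bars of 1 standard error and 2 libraries per group; *NR5A2* is shown as a ratio of counts with its 95% counting interval. Of the 17 genes, 8 lie above 0 and 9 below in miR-27a KO cells, and none of the squares was called.

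In miR-23a KO against Scr cells 0 of 13787 genes (0%) were called in either direction by edgeR, and in miR-23a KO against miR-27a KO cells 0 of 13841 (0%). Without adjustment, p fell below 0.05 with a rise for 118 genes and with a fall for 214 in the former, and for 645 and 563 in the latter, and DESeq2 called 5 and 59 in the former and 258 and 214 in the latter. The median log2 fold change over all genes was 0.16 in the former and 0.11 in the latter. The stomach list had a median of -1.17 in miR-23a KO against Scr cells over 7 genes tested, the brush border list 0.19 over 19, the intestinal epithelium list -0.0011 over 11, the exocrine pancreas list 0.57 over 4, the member families -0.15 over 9 and the endoderm factors -0.13 over 17. In miR-23a KO cells *TSPAN8* had a log2 fold change of -2.69 against Scr (adjusted p = 1), which did not pass the threshold in edgeR, with both libraries below both of Scr.

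The part of other cells in the members' values was not tested, and the marker lists are given by library. Of 16 hepatocyte markers tested, edgeR called 5 lower (*ALB*, *AFP*, *APOA2*, *FGB* and *RBP4*) and 1 higher (*TF*) in miR-27a KO than in Scr cells, beside 6.74% and 3.52% of all genes. Of these 6 calls only that of *AFP* held with all 6 libraries in a single fit, *RBP4* lost its call in 4 of 7 alternatives, and *APOA2* and *RBP4* lost theirs with miR-27a KO replicate 1 or replicate 2 left out, as did *RBP4* without Scr replicate 2 and *TF* without miR-27a KO replicate 2. *ALB* fell by 2.59 (standard error 0.20, adjusted p = 0.00537, edgeR) on the log2 scale, *AFP* had a log2 fold change of -4.115 (0.23, adjusted p = 0.00262), and *TF* rose by 1.25 (0.20, adjusted p = 0.0213). The call of *TF* was also lost with GC content and length corrected. The biliary markers with rows (7 of 8) summed to 1639 and 1670 CPM in miR-27a KO cells, 870 and 558 in Scr cells and 417 and 722 in miR-23a KO cells, of which *SPP1* made up 1266 and 1289, 465 and 185, and 141 and 542 CPM in the same order of groups, so that the sum without *SPP1* was 373 and 381, 405 and 373, and 276 and 181 CPM. *KRT19* had 1837 to 3229 counts and *SOX9* 522 to 2480 over the 6 libraries, and *KRT7* had at most 6 and *CFTR* at most 10 in any of them. *CD24* had 829 and 963 counts in miR-27a KO cells, 515 and 360 in Scr cells and 15 and 47 in miR-23a KO cells. Of 12 blood, vessel and stroma markers, 9 had rows and summed to 1507 and 1571, 396 and 443, and 162 and 215 CPM in that order of groups. *LYZ*, the lysozyme gene, made up most of that sum in every library, with 24691 and 25916 counts in miR-27a KO cells, 5426 and 6049 in Scr cells and 1676 and 3413 in miR-23a KO cells. *PECAM1* had 23 to 120 counts and *CD14* 2 to 33 over the 6 libraries, *CD14* with 2 and 3 in miR-23a KO cells, while the leukocyte marker *PTPRC* had at most 2 counts and the red cell marker *HBB* at most 1 in any library. *VWF* had at most 19 and *CDH5* at most 11. Without *LYZ* the sum went the other way, with 12.2 and 12.5 CPM in miR-27a KO cells against 25.2 and 36.9 in Scr cells. In both lists 1 gene was called higher and 1 lower in miR-27a KO than in Scr cells. The biliary gene called higher, *SPP1*, lost its call in 3 of 7 alternatives, and its log2 fold change of 1.95 became 2.79 without Scr replicate 1. *PDGFRB* fell by 2.12 on the log2 scale in miR-27a KO cells (0.30, adjusted p = 0.0166, edgeR), whereas *LYZ* rose by 1.96 (0.09, adjusted p = 0.00204) and had the order of *PGC* over the 3 groups. With all 6 libraries in a single fit neither was called (adjusted p = 0.14 for *PDGFRB* and 0.0884 for *LYZ*, the highest over 7 alternatives, edgeR).

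These values come from a single cell line with 2 libraries per group. The main pairwise edgeR fits made no calls in either comparison with miR-23a KO cells, although other settings did. The members and most neighbours named were picked for their values, so the size of their changes may be overstated. Protein, secretion and protease activity were not measured. Levels rest on deposited counts whose genome, annotation and use of strand are unknown, and rows such as those of *TFF3* and *CDH17* may hold part of a gene only.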

How the data were processed

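RNA was measured in HepG2 cells, with 2 libraries for each of 3 groups (Scr and the knockouts of miR-23a and of miR-27a). The deposited columns are named FPKM but were read as estimated counts per gene, which rests on totals that differ between libraries and on the share of whole values, 34.5 to 40.8% of those above 0 (within 1e-08 of a whole number). The submitters' notes name HISAT, StringTie, Cufflinks and GATK without roles. The counting tool, genome build, annotation and use of strand in the counting are not given in the sources used here. The labels name a TruSeq RNA kit, whereas the methods of the study name a stranded mRNA kit.

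Counts were rounded, filtered with filterByExpr, scaled by TMM (factors 0.793 to 1.14) and fitted per pair of groups by the quasi-likelihood functions of edgeR 4.0.16 in R 4.3.3, with Benjamini-Hochberg adjustment over all genes tested. A call needed an adjusted p below 0.05 together with a change of more than 1.5-fold. The common coefficient of variation was 0.446 for miR-23a KO against Scr, 0.159 for miR-27a KO against Scr and 0.415 between the knockouts. Alternatives were median-ratio size factors, DESeq2 1.42.0, no filter, all 6 libraries in a single fit, a replicate block, GC content and length offsets with and without the block, each library left out, and an adjusted p under 0.001. The workflow was also run on simulated data. Their spread was set below the common coefficient of variation of every comparison here, so that run cannot speak for the calls with miR-23a KO cells. CPM used TMM over the 6 libraries, and log2 CPM a prior count of 2. Lengths came from GENCODE release 29 for 87.1% of genes.

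The members and lists were chosen with earlier results of these data known. In the list of endoderm factors, 1 gene is not reported here. Named genes were all members, list genes called (up to 8 per list and direction), up to 4 uncalled genes per list by mean CPM, and the nearest genes (5 for *PGC*, 2 for others). *CDX1*, *CTSE*, *PRSS1*, *KRT7*, *PTPRC*, *HBB* and the neighbours of *PGC* and *MEP1A* were named after their values were seen.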

Additional observations from a re-analysis of the deposited data

Results flagged for a closer look

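For 3 members, all libraries of a knockout lay above both Scr libraries and all libraries of the other knockout lay below them. The difference in mean log2 CPM of miR-27a KO minus miR-23a KO cells was 5.52 for *PGC*, -4.75 for *CDX2* and -4.63 for *SPINK1*, and it was not tested because the members were selected on these values. For *SPINK1*, the fitted log2 fold change of miR-23a KO against miR-27a KO cells was 4.98. It became 6.85 without miR-27a KO replicate 1 and 4.18 without miR-27a KO replicate 2. Nothing is read from these differences on the deletions. The same pattern was seen in 5 of 17 list genes called in miR-27a KO cells (29.4%), beside 14.7% of 1418 genes called there and 5.97% of 13821 genes tested there, with differences of 1.72 for *EPCAM*, 3.26 for *FABP1*, -5.97 for *NR5A2*, 3.58 for *TREH* and 4.65 for *TSPAN8*. The direct comparison of the knockouts passed the threshold for none of these 5 in edgeR, with adjusted p between 0.096 (*TSPAN8*) and 0.350 (*FABP1*). In miR-23a KO cells, *FABP1* had 17.6 and 3.79 CPM and *TREH* had 1.30 and 0.22 CPM, so their differences vary with the library. Both knockouts lay on the same side of Scr for 3 of the 17 (17.6%, beside 17.4% of genes called and 10.5% of genes tested), below it for *FOXQ1* and *NKX6-3* and above it for *ISX*.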

How the results depend on the processing

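The log2 fold changes of *PGC*, *CDX2* and *SPINK1* kept their sign under every alternative run, as did that of *MEP1A* in miR-27a KO cells. *MEP1A* in miR-23a KO against Scr cells changed sign with GC content and length corrected (0.30), without Scr replicate 2 (0.11) and without miR-23a KO replicate 2 (0.32), over a range of -1.25 to 0.32 with a library left out. *VIL1* changed sign in miR-27a KO against Scr cells with that correction, alone (-0.13) or with the replicate block (-0.13), and without Scr replicate 1 (-0.0046, range with a library left out -0.0046 to 0.105), and between the knockouts with the correction alone (0.048). In miR-23a KO against Scr cells its value of -0.47 became -0.07 with the correction and -0.30 with the correction and the block. The labels give same-numbered libraries nothing in common but the number. Their deviations correlated by 0.19 between Scr and miR-23a KO, -0.0078 between Scr and miR-27a KO and 0.015 between the knockouts. Whether same-numbered libraries were handled together was not tested. In miR-27a KO against Scr cells, the 487 higher and 931 lower calls became 2 and 2 at an adjusted p under 0.001, 297 and 579 without the filter, and 3 and 61 with all 6 libraries in a single fit, a fit that shares the wide spread of miR-23a KO. Leaving out each library gave 82 to 1917 higher and 246 to 1813 lower. The 17 list genes became 0 at 0.001, 11 without the filter and 1 in the fit of all 6 libraries, and 7 (without miR-27a KO replicate 2) to 29 (without Scr replicate 1) with a library left out. The replicate block changed no count by over 1.5 times there (624 higher, 1069 lower and 17 list genes). In miR-23a KO against Scr cells, the 0 calls became 5 higher and 59 lower with DESeq2, 7 and 62 with the replicate block, 14 and 77 with GC content and length corrected and the block, and 0 higher with 10, 3 and 8 lower without the filter, with all 6 libraries and with the correction alone. Leaving out a library gave 0 to 1692 higher, 4 to 929 lower and 0 to 15 list genes, the highest without miR-23a KO replicate 2. Between the knockouts, the 0 calls became 258 higher and 214 lower with DESeq2, 109 and 109 with all 6 libraries, 212 and 189 with the block, 109 and 97 with the correction and 416 and 334 with both, and 9, 4, 6, 2 and 9 list genes. Leaving out a library gave 25 to 3584 higher, 47 to 3716 lower and 1 to 41 list genes, the highest without a miR-23a KO library. In these fits the lone library of a group is assumed to vary like the others. The cause was not tested for any of these changes. Depth limits *TFF1*, *TFF3* and *CDH17*, where a group held at most 14 counts.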
